A study of Mus musculus with 6 samples.

Results

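The genes described here encode the enzymes and surrogate chains with which a B-cell precursor builds its first receptor. The members were fixed by name as Rag1, Rag2, Dntt, Vpreb1, Vpreb2, Igll1 and Vpreb3, which are 7 of the 38293 genes measured. RNA was sequenced from 6 tumors of C57BL6 mice that all carry the Eμ-Myc transgene, in which the immunoglobulin heavy chain enhancer drives Myc in B-lineage cells. The 2 miR-146a-deficient tumors (miR-146a-/-) arose in the thymus of mice aged 11 and 10 weeks that were labelled female. The 4 miR-146a-sufficient tumors (miR-146a+/+) came from mice labelled male. Replicates 1 and 2 of these were neck node tumors at 18 and 16 weeks, and replicates 3 and 4 were thymic tumors at 10 weeks each. Labelled sex and genotype therefore cannot be told apart, and among the sufficient tumors neither can site and age. RNA was taken from whole tumor suspensions, so fewer cells of a type and less RNA per cell cannot be told apart in these values.

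Rag1 and Rag2 form the recombinase that cuts antigen receptor genes so that their V, D and J segments can be joined. Dntt is the template-free polymerase that adds bases at those joints. Vpreb1, Vpreb2 and Igll1 make the surrogate light chain, which pairs with a newly made heavy chain in the pre-B receptor until a true light chain is available. Vpreb3 is a related chain that binds nascent heavy chains inside the cell. Rag1, Rag2, Dntt and the surrogate light chain genes are known as marks of B-cell precursors and are shut down in mature B cells. Rag1, Rag2 and Dntt are used by thymocytes as well.

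Positions are those of GENCODE on GRCm38. Rag1 lies on chromosome 2 from 101638282 to 101649501 on the minus strand, and Rag2 lies 5.752 kb away from 101624718 to 101632529 on the plus strand. The 2 genes converge. Igll1 on chromosome 16 (16860671 to 16863985) and Vpreb1 (16868403 to 16870843) are 4.417 kb apart on the minus strand. Vpreb2 lies 1110 kb from Vpreb1, from 17980428 to 17981273 on the plus strand. Dntt is on chromosome 19 (41029275 to 41059525) and Vpreb3 on chromosome 10 (75943057 to 75949657).

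The 250 bases before the RefSeq start of Rag1, Rag2 and Igll1 are printed 5′ to 3′ on the strand of the gene as examples of a recombinase pair on 1 locus and of a surrogate light chain gene. Capitals mark matches, on either strand, to CAGGTG or CAGCTG (E-box letters read by E proteins), CCCNNGGG (the core of the EBF1 site) and TGGGAA (the core of the Ikaros site). RefSeq windows on GRCm38 were found for all 7 genes.
Rag1, chr2:101649533-101649782, minus strand: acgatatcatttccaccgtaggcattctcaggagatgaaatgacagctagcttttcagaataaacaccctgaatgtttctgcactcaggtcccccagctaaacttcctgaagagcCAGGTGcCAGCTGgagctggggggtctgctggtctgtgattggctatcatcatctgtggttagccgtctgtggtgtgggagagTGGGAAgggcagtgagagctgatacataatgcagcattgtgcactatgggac
Rag2, chr2:101624462-101624711, plus strand: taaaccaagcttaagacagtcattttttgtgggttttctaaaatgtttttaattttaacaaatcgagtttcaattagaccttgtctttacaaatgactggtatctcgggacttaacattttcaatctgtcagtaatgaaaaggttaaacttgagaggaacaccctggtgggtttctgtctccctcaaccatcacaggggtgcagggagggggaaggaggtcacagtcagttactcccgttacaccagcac
Igll1, chr16:16863986-16864235, minus strand: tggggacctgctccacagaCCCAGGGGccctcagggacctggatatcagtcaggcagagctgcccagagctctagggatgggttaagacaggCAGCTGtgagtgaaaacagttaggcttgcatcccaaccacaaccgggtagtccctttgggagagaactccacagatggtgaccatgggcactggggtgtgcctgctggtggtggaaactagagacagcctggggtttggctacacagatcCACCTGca

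The Rag1 window held CAGGTG with its first base at -135 from the start, CAGCTG at -128 and TGGGAA at -52. The Igll1 window held CCCNNGGG at -231, CAGCTG at -158 and CAGGTG on the other strand at -8. The Vpreb1 window had a single match, CAGGTG at -88. Vpreb2 had CAGGTG at -232, and CAGCTG at -60 overlapped TGGGAA on the other strand at -64. The windows of Rag2, Dntt and Vpreb3 held none of these letters. The bases before the start of Vpreb1 and Vpreb2 are not printed, since GENCODE counts 190 and 137 of the 250 as exon of the same gene. Among 32851 mouse promoter windows of 300 bases, 20.2% held CAGGTG, 16.3% CAGCTG, 13.7% CCCNNGGG and 25.6% TGGGAA, so each match is a common one and is given as a description only.

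**Figure D1:**
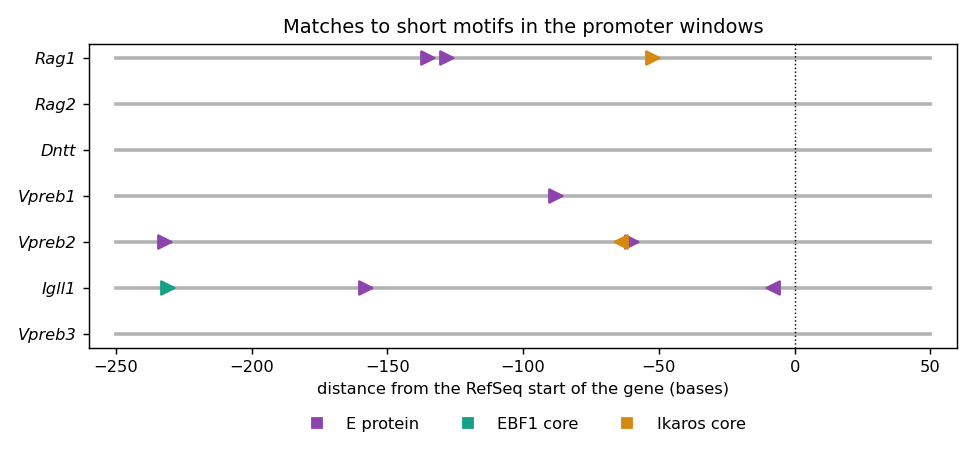
Matches to E protein letters (CAGGTG or CAGCTG), the EBF1 core and the Ikaros core in the promoter window of each gene, by distance of the first base from the RefSeq start in bases, with arrows to the right for the strand of the gene and to the left for the other strand. Rag1, Vpreb2 and Igll1 hold 3 matches each, Vpreb1 holds 1, and Rag2, Dntt and Vpreb3 hold none.

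The values are labelled RPKM, which by name are read numbers divided by gene length and by sequencing depth, with 1 value for each gene in each tumor. How they were made is not given in the sources used here. The study's methods normalize the counts by the geometric mean across samples, and whether the RPKM include that step is not stated. No counts were used, library depth is unknown, and counting error has no interval here. Xist was 1240070 RPKM in deficient replicate 1 and 1819 RPKM in deficient replicate 2, against 1585 to 2203 RPKM in the sufficient tumors, which raised the sum of deficient replicate 1 to 1932930 RPKM. By the definition above, a value as high as that of deficient replicate 1 would need a very short gene length. It may therefore not be an RPKM in that sense, and its origin was not tested. RPKM without Xist summed to 692853 and 712244 in the deficient tumors, against 673931 to 787151 in the sufficient tumors. The Mir146 gene is listed at 0 in all 6 tumors and does not check the genotype. Y-linked Ddx3y was 0.130 and 24.6 RPKM in the deficient tumors, against 17.9 to 23.0 RPKM in the sufficient ones, so deficient replicate 2 goes against its labelled sex. The 4 B lineage markers summed to 1768 and 1194 RPKM in the deficient tumors, against 1241 to 1770 RPKM in the sufficient tumors, and Pax5, the B lineage commitment factor, was 34.2 and 24.1 RPKM in the deficient tumors, against 22.6 to 37.8 RPKM in the sufficient tumors. The labels do not say which tumors shared a litter or a preparation, so p-values measure only the spread between these tumors.

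Vpreb3 was abundant in every tumor, and the other 6 genes were low in most tumors and high in a few. Rag1 reached 55.1 RPKM in 1 thymic sufficient tumor and was as low as 0.0813 RPKM in 1 deficient tumor. None of the 7 genes separated the genotypes. Both Rag genes were lower in the neck node sufficient tumors and in the thymic deficient tumors than in the 2 thymic sufficient tumors, without passing adjustment over all genes. The neck node tumors lay below both thymic sufficient tumors for 12.6% of all genes, and the deficient tumors did so for 10.5%. Both comparisons rest on the same 2 thymic sufficient tumors.

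**Figure D2:**
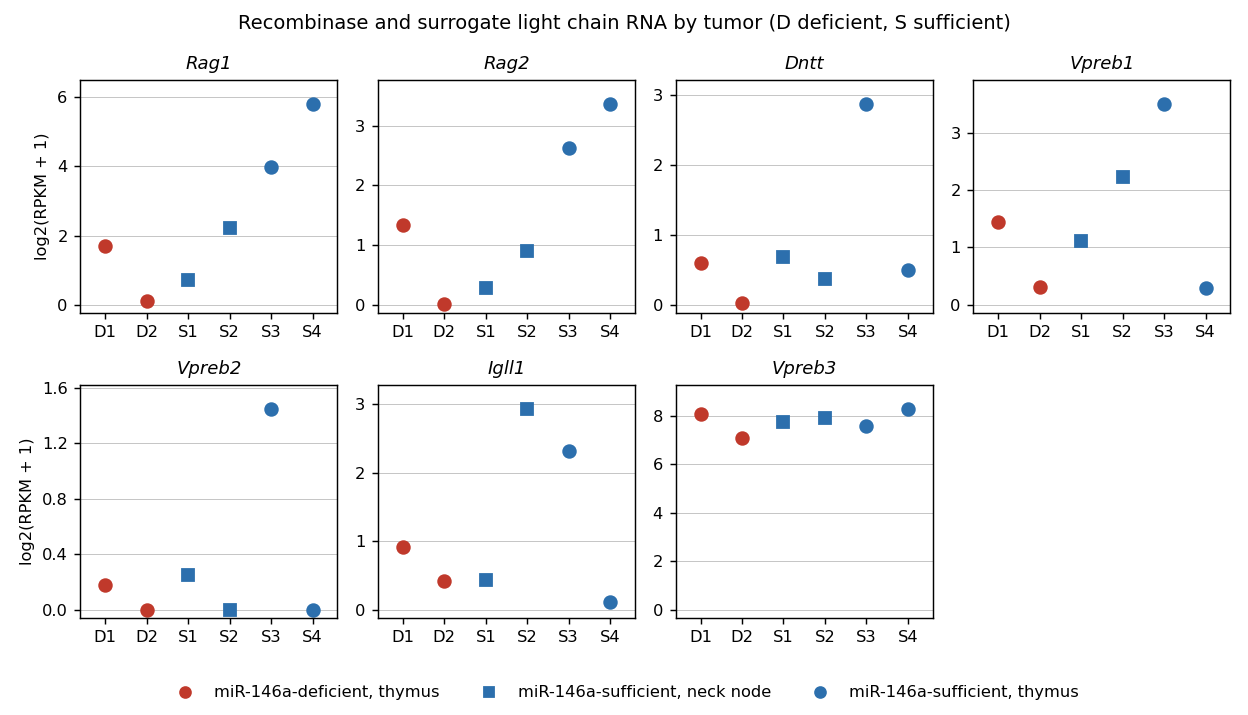
RNA of each gene as log2(RPKM + 1) in the 6 tumors, with deficient tumors (D, red) left of sufficient tumors (S, blue), neck node tumors as squares and thymic tumors as circles. Rag1 and Rag2 are highest in S3 and S4, Dntt and Vpreb2 stand apart in S3 only, Igll1 is highest in S2 and S3, and Vpreb3 spans 136 to 311 RPKM.

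Rag1 (ENSMUSG00000061311), the subunit that carries the cutting site of the recombinase, measured 2.27 and 0.0813 RPKM in the deficient tumors, against 0.640, 3.63, 14.9 and 55.1 RPKM in sufficient replicates 1 to 4. The 2 thymic sufficient tumors were above all others, and deficient replicate 1 lay between the 2 neck node tumors, so the genotypes overlapped. Rag1 averaged 1.18 ± 1.55 RPKM in the deficient tumors (SD, n = 2) and 18.6 ± 25.1 RPKM in the sufficient tumors (SD, n = 4). The difference in log2(RPKM + 1), a scale that compresses the changes of genes with low values, was -2.27 (standard error 1.21, 95% confidence interval -5.03 to 0.49, adjusted p = 0.893 from limma). The exact two-sided permutation test over the 6 tumors gave p = 0.267, where 0.133 is the smallest p that 2 against 4 tumors allow.

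Rag2 (ENSMUSG00000032864), the subunit that reads the chromatin mark at active segments, measured 1.52 and 0.00814 RPKM in the deficient tumors, against 0.219, 0.869, 5.21 and 9.33 RPKM in the sufficient tumors. The order of the 4 sufficient tumors was that of Rag1, and deficient replicate 1 lay above both neck node tumors. Rag2 averaged 0.765 ± 1.07 RPKM in the deficient tumors (SD, n = 2) and 3.91 ± 4.24 RPKM in the sufficient tumors (SD, n = 4). The log2 difference was -1.13 (standard error 0.82, interval -3.01 to 0.76, adjusted p = 0.893 from limma). The exact permutation p was 0.533.

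Dntt (ENSMUSG00000025014) measured 0.510 and 0.0129 RPKM in the deficient tumors, against 0.606, 0.287, 6.34 and 0.415 RPKM in the sufficient tumors. Sufficient replicate 3, a thymic tumor, stood above the rest, and the other thymic sufficient tumor, which had the most Rag1, was at the level of the neck node tumors. The ratio of Rag1 to Dntt was 2.35 in sufficient replicate 3 and 133 in sufficient replicate 4. The log2 difference between genotypes was -0.80 (standard error 0.66, interval -2.30 to 0.70, adjusted p = 0.893 from limma), and was -0.21 without sufficient replicate 3.

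Vpreb1 (ENSMUSG00000059305), which provides the variable-like chain of the surrogate light chain, measured 1.73 and 0.237 RPKM in the deficient tumors, against 1.17, 3.68, 10.4 and 0.224 RPKM in the sufficient tumors. Sufficient replicate 4, the highest for both Rag genes, was the lowest for Vpreb1. The log2 difference was -0.91 (standard error 0.79, interval -2.71 to 0.90, adjusted p = 0.893 from limma). In the annotation, 9.01% of the exonic bases of Vpreb1 are also exonic in Top3b on the other strand, and reads from these bases cannot be told apart where strand was not used.

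Igll1 (ENSMUSG00000075370), the constant-like chain of the surrogate light chain, measured 0.882 and 0.343 RPKM in the deficient tumors, against 0.349, 6.64, 3.99 and 0.0814 RPKM in the sufficient tumors. The 2 highest tumors were the same as for Vpreb1 in the other order, and sufficient replicate 4 was again the lowest. The log2 difference was -0.78 (standard error 0.75, interval -2.50 to 0.94, adjusted p = 0.893 from limma).

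Vpreb2 (ENSMUSG00000059280), a near copy of Vpreb1, measured 0.134 and 0 RPKM in the deficient tumors, against 0.189, 0, 1.73 and 0 RPKM in the sufficient tumors. It was above 0.5 RPKM in 1 tumor, sufficient replicate 3, and was not tested. The longest transcripts of Vpreb1 and Vpreb2 were 97.4% identical over 759 aligned bases, and 14.5% of all runs of 100 bases in Vpreb1 also occur in Vpreb2. How reads that fit both genes were assigned is not given in the sources used here, so the split between them is uncertain. Where both were above 0, Vpreb1 exceeded Vpreb2 by 12.9 times in deficient replicate 1, against 6.19 and 6.01 times in sufficient replicates 1 and 3.

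Vpreb3 (ENSMUSG00000000903) measured 272 and 136 RPKM in the deficient tumors, against 215, 242, 191 and 311 RPKM in the sufficient tumors. It averaged 204 ± 96.0 RPKM in the deficient tumors (SD, n = 2) and 240 ± 51.7 RPKM in the sufficient tumors (SD, n = 4), a log2 difference of -0.29 (standard error 0.32, interval -1.03 to 0.44, adjusted p = 0.893 from limma). In the values as labelled, Vpreb3 was above Vpreb1 by 18.4 times in the tumor where the 2 were closest and by 1390 times in sufficient replicate 4.

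Of the 7 genes, 6 passed the filter of at least 0.5 RPKM in at least 2 tumors and were tested, among 12751 genes in all. At an adjusted p under 0.05 from limma 0 of the 6 were called, where 0.0627% of all tested genes were called. With the unadjusted limma p held under 0.05 instead, 0 of the 6 were lower, where 0.737% of all genes were lower. In 0 of the 6 did the deficient tumors lie below all sufficient tumors, which held for 2.09% of all genes. All 6 log2 differences were negative, with a median of -0.85, against 0.13 over all tested genes. The median of all genes was -0.01 after median-ratio scaling, and the 6 differences stayed negative under it. These genes share the same 6 tumors, and deficient replicate 2 was the lowest tumor for Rag1, Rag2, Dntt and Vpreb3, with Vpreb2 listed at 0.

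Because both deficient tumors were thymic, the genotypes were also compared among the 4 thymic tumors. Rag1 was 2.27 and 0.0813 RPKM in the deficient tumors, against 14.9 and 55.1 RPKM in the thymic sufficient tumors, a log2 difference of -3.99 (standard error 0.71, interval -5.66 to -2.31, unadjusted p = 0.000803, adjusted p = 0.373 from limma). Rag2 was 1.52 and 0.00814 RPKM, against 5.21 and 9.33 RPKM, a difference of -2.33 (standard error 0.50, interval -3.52 to -1.14, unadjusted p = 0.0024, adjusted p = 0.662 from limma). These were 2 of 6 genes with an unadjusted p under 0.05 and a lower value, where 2.12% of all genes met that rule. The same 2 genes had both deficient tumors below both sufficient tumors, as did 10.5% of all genes, and 0.333 is the smallest exact p for 2 against 2. With all 6 tumors and site as a covariate the differences were -3.99 and -2.33, with an adjusted p of 0.545 for each from limma. They equal those of the thymic comparison by design, since both deficient tumors were thymic and the neck node tumors add only to the spread. Over all alternatives the adjusted p from limma ran from 0.373 to 1.00 for Rag1 and from 0.545 to 1.00 for Rag2. With each of the 6 tumors left out in turn, the difference between genotypes ran from -3.09 to -1.39 for Rag1, -1.79 to -0.46 for Rag2, -1.09 to -0.21 for Dntt, -1.48 to -0.33 for Vpreb1 and -1.23 to -0.29 for Igll1. Against the neck node tumors alone, in the fit with the replicate number as a block, the deficient tumors differed by -0.55 for Rag1 (interval -2.55 to 1.45) and 0.08 for Rag2 (interval -1.24 to 1.40).

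Within the sufficient genotype, neck node tumors were set against thymic tumors. Rag1 averaged 2.13 RPKM in the 2 neck node tumors and 35.0 RPKM in the 2 thymic tumors, a log2 difference of -3.44 (standard error 0.70, interval -5.11 to -1.76, unadjusted p = 0.0021, adjusted p = 0.316 from limma). Rag2 averaged 0.544 RPKM in the neck node tumors and 7.27 RPKM in the thymic tumors, a difference of -2.41 (standard error 0.38, interval -3.31 to -1.50, unadjusted p = 0.000493, adjusted p = 0.150 from limma). Adjusted calls were 0 of 6 genes, against 0.155% of all genes. Rag1 and Rag2 were the 2 of 6 with an unadjusted p under 0.05 and a lower value, against 2.65% of all genes, and the 2 of 6 whose neck node tumors lay below both thymic tumors, against 12.6% of all genes. Without sufficient replicate 2, with 1 neck node tumor left whose spread is taken from the thymic pair, Rag1 fell by 4.19 (adjusted p = 0.00239 from limma) and Rag2 by 2.72 (adjusted p = 0.015 from limma). Over all alternatives the adjusted p from limma ran from 0.00239 to 0.715 for Rag1 and from 0.015 to 0.713 for Rag2.

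For the other 4 genes tested the interval included 0. The neck node minus thymus difference was -1.16 for Dntt (interval -2.88 to 0.55), -0.23 for Vpreb1 (interval -2.58 to 2.12), 0.47 for Igll1 (interval -1.84 to 2.78) and -0.10 for Vpreb3 (interval -0.85 to 0.66), with adjusted p from 0.693 to 0.963 from limma. Without sufficient replicate 4 the Dntt difference was -2.35 (interval -3.21 to -1.50, unadjusted p = 0.000788, adjusted p = 0.190 from limma). The sign for Vpreb1, Igll1 and Vpreb3 depended on which tumor was left out. The comparison by site and the thymic comparison by genotype share sufficient replicates 3 and 4, the 2 tumors with the most Rag RNA.

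**Figure D3:**
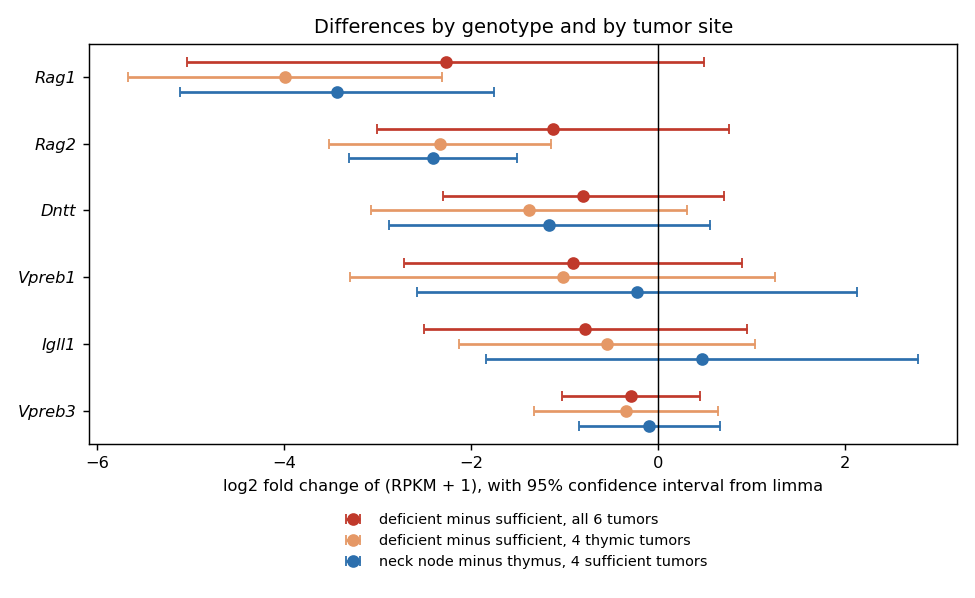
Log2 fold change of (RPKM + 1) with its 95% confidence interval from limma for the 6 genes tested: deficient minus sufficient in all 6 tumors (red), deficient minus sufficient in the 4 thymic tumors (orange), and neck node minus thymus in the 4 sufficient tumors (blue). Intervals of Rag1 and Rag2 lie below 0 in the thymic and site comparisons only, and every interval of the other 4 genes includes 0.

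The spread between tumors was large for 5 of the 6 genes tested. The SD of log2(RPKM + 1) over the 6 tumors was 2.13 for Rag1, rank 48 of 12751 genes tested, and 1.33 for Rag2, rank 162. It was 1.23 for Vpreb1, 1.16 for Igll1 and 1.02 for Dntt, against a median of 0.31 over all tested genes. Vpreb3 had an SD of 0.42, above 73.3% of all genes. The highest tumor exceeded the lowest by 677 times for Rag1, 1146 times for Rag2, 493 times for Dntt, 81.6 times for Igll1, 46.4 times for Vpreb1 and 2.29 times for Vpreb3. The lowest values of Rag1, Rag2 and Dntt are near 0, and these ratios rest on them.

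Pairs of genes were compared over the 6 tumors as log2(RPKM + 1), 21 pairs in all, and 0 pairs passed adjustment while 3 had an unadjusted exact permutation p under 0.05 for Pearson's r. Rag1 and Rag2 had a Pearson's r of 0.979 (exact permutation p = 0.0042, adjusted 0.0875) and a Spearman's rho of 0.943 (exact permutation p = 0.0167, adjusted 0.117). Without the 2 tumors farthest from the median of Rag1, sufficient replicates 3 and 4, r was 0.867. The ratio of Rag1 to Rag2 was 1.49 and 9.98 in the deficient tumors, against 2.86 to 5.90 in the sufficient tumors.

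Vpreb1 and Igll1, the 2 chains of the surrogate light chain, had an r of 0.848 (exact permutation p = 0.0236, adjusted 0.165) and a rho of 0.943 (exact permutation p = 0.0167, adjusted 0.117), and r was 0.868 without the 2 farthest tumors. The ratio of Vpreb1 to Igll1 was 1.96 and 0.692 in the deficient tumors, against 0.554 to 3.34 in the sufficient tumors. Dntt and Vpreb2 had an r of 0.988 (exact permutation p = 0.0083, adjusted 0.0875), a rho of 0.941 (exact permutation p = 0.0167, adjusted 0.117) and an r of 0.910 without the 2 farthest tumors, with Vpreb2 listed at 0 in 3 tumors. Rag1 and Vpreb1 had an r of 0.18 (exact permutation p = 0.724, adjusted 0.950) and a rho of 0.14 (exact permutation p = 0.803, adjusted 1.00), and this low r rests on the thymic sufficient tumors, since r was 0.963 over the other 4. Rag1 and Igll1 had an r of 0.08 (exact permutation p = 0.879, adjusted 0.956) and a rho of 0.09 (exact permutation p = 0.919, adjusted 1.00), and r was 0.830 without the same 2 tumors. Correlations within a genotype or a site, which hold at most 4 tumors, were not tested.

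**Figure D4:**
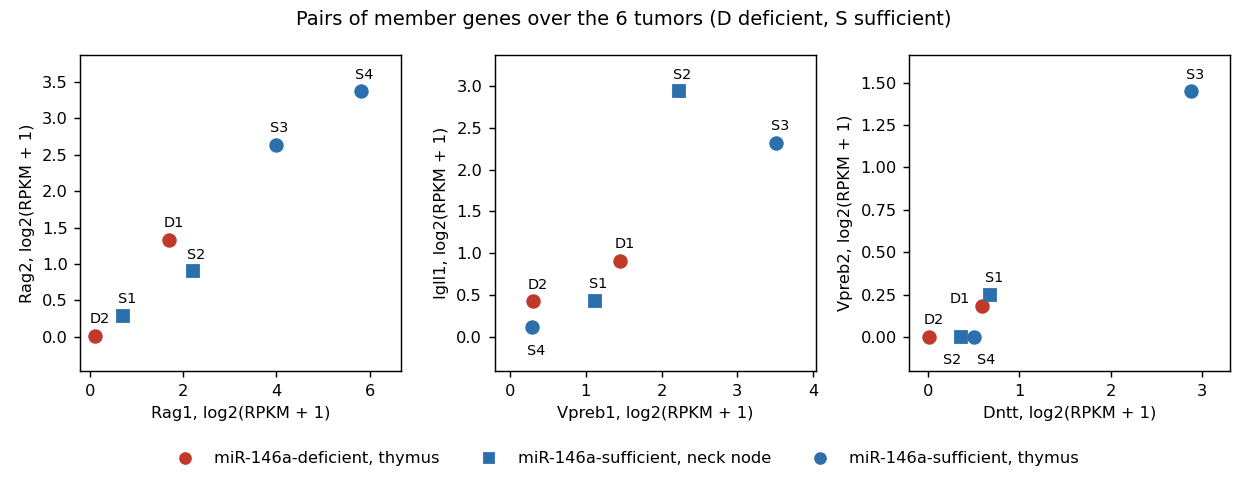
Rag1 against Rag2, Vpreb1 against Igll1, and Dntt against Vpreb2 as log2(RPKM + 1), 1 point per tumor, with deficient tumors in red (D), sufficient tumors in blue (S), neck node tumors as squares and thymic tumors as circles. The Rag genes order the tumors alike apart from D1 and S2, and S4 is at the top for the Rag pair and at the bottom for Vpreb1 and Igll1.

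Among all tested genes, those with a pattern most like Rag1 over the 6 tumors included Hist1h4i and Rrm2b, each at r = 0.99. For Rag2 they were RP23-463F7.8, Gm53 and Tifa at r from 0.99 to 1.00, and for Dntt Rpl32, Rpl7a-ps5 and Rps24-ps2 at r = 0.98 each. Gm11510, Gm13141 and Gm7363 were nearest to Vpreb1, Gm12722, Adora2b and Gm19815 to Igll1, and Gm10241, Ppp1r14b and Nipsnap3b to Vpreb3. An r of at least 0.9 was reached with 97 of 12750 genes by Rag1, 134 by Rag2, 125 by Dntt, 39 by Vpreb1, 9 by Igll1 and 75 by Vpreb3. With 6 tumors sharing the same libraries, these are descriptions of likeness.

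The Rag locus was read together with its neighbors. B230118H07Rik, a gene that starts 31 bases from Rag1 and spans both Rag genes, measured 0.122 and 0.0706 RPKM in the deficient tumors, against 0.135, 0.334, 1.21 and 2.47 RPKM in the sufficient tumors. It was highest in the same 2 thymic tumors as Rag1 and Rag2. The 2 deficient tumors were the lowest of the 6, which held for 2.09% of all genes (log2 difference -0.75, adjusted p = 0.893 from limma). Its values in the deficient and neck node tumors were all under 0.5 RPKM, the minimum of the filter. In the annotation used here it shares 1.21% of the exonic bases of Rag1 and 6.07% of those of Rag2. How reads from shared bases were counted is not given in the sources used here. Traf6, 28.93 kb from Rag1 and a signaling gene known as a miR-146a target, measured 8.78 and 11.3 RPKM in the deficient tumors, against 8.03 to 10.7 RPKM in the sufficient tumors, with its highest value in deficient replicate 2, the lowest tumor for both Rag genes. Commd9 was 14.2 and 13.7 RPKM in the deficient tumors, against 11.7 to 25.8 RPKM in the sufficient tumors. Of 5 neighbors, 4 were tested and 0 were called by limma, adjusted or unadjusted, with a median log2 difference of -0.13.

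The end joining list holds proteins that repair the breaks made by Rag1 and Rag2, with the DNA-bending cofactors of cutting Hmgb1 and Hmgb2, and 0 of its 12 genes were called by limma, with 1 lower at an unadjusted p under 0.05 (0.737% of all genes). Xrcc6, which encodes Ku70, was 29.1 and 18.5 RPKM in the deficient tumors, against 37.7 to 49.4 RPKM in the sufficient tumors (log2 difference -0.84, standard error 0.24, unadjusted p = 0.00724, adjusted p = 0.893 from limma). Xrcc4, the partner of the joining ligase, was 1.44 and 0.905 RPKM, against 1.48 to 1.70 RPKM, with a difference of -0.25 (adjusted p = 0.893 from limma). These were the 2 genes of the list below all sufficient tumors (2.09% of all genes), and the list's median difference was -0.09.

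The pre-B receptor list holds the heavy chain that pairs with the surrogate light chain and the kinases and adaptors downstream. Of its 12 genes 0 were called, and 2 were higher at an unadjusted limma p under 0.05, against 2.88% of all genes. Ighm, the mu heavy chain gene, was 2272 and 2632 RPKM in the deficient tumors, against 910 to 1653 RPKM in the sufficient tumors (log2 difference 1.04, unadjusted p = 0.0113, adjusted p = 0.893 from limma). Both deficient tumors lay above all sufficient tumors for Ighm, which held for 9.15% of all genes.

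Of 21 transcription factors known to act on these loci, 20 were matched by symbol, 19 were tested and 0 were called by limma (1 lower at an unadjusted p under 0.05, against 0.737% of all genes), with a median difference of 0.07. Tcf3, the main E protein gene, was 97.3 and 104 RPKM in the deficient tumors, against 66.8 to 110 RPKM in the sufficient tumors. Ebf1, an early B-cell factor that acts on Vpreb1 and Igll1, was 15.5 and 3.67 RPKM, against 9.17 to 15.0 RPKM. Foxo1, an activator of the Rag genes, was 8.93 and 6.94 RPKM, against 4.84 to 11.2 RPKM. Deficient replicate 2, lowest for both Rag genes, was also the lowest for Ebf1 and for Sox4, which was 15.2 and 2.00 RPKM in the deficient tumors, against 8.40 to 19.5 RPKM in the sufficient tumors. Lef1, a precursor-stage factor, was 0.173 and 0.0827 RPKM, against 0.468 to 5.78 RPKM (log2 difference -1.51, unadjusted p = 0.0327, adjusted p = 0.893 from limma), and was the 1 gene of the list below all sufficient tumors (2.09% of all genes). Ikzf1, which encodes Ikaros, was 68.0 and 98.2 RPKM, against 54.6 to 67.4 RPKM (log2 difference 0.41, adjusted p = 0.893 from limma), and was the 1 gene above them (9.15% of all genes).

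Of 10 pro-B and pre-B markers, 8 were tested and 0 were called by limma, with 1 lower at an unadjusted p under 0.05 (0.737% of all genes) and a median difference of -0.05. Il7r, the receptor for the growth factor of B-cell precursors, was 1.58 and 2.26 RPKM in the deficient tumors, against 10.9, 5.23, 2.97 and 40.8 RPKM in the sufficient tumors (log2 difference -1.86, unadjusted p = 0.0459, adjusted p = 0.893 from limma). Cd93, an early B-cell surface marker, was 39.9 and 11.6 RPKM, against 6.06 to 32.0 RPKM (log2 difference 0.74), and Flt3, a receptor of early progenitors, was 0.318 and 5.86 RPKM, against 0.528 to 1.78 RPKM (log2 difference 0.66), both with an adjusted p of 0.893 from limma. Of 15 mature B cell markers 12 were tested and 0 were called by limma, with 2 higher (2.88% of all genes) and 1 lower (0.737% of all genes) at an unadjusted p under 0.05. Igkc, the kappa light chain constant gene, was 3523 and 2017 RPKM in the deficient tumors, against 851 to 1171 RPKM in the sufficient tumors (log2 difference 1.37, unadjusted p = 0.00258, adjusted p = 0.818 from limma). Cd22, a receptor inhibitor, was 86.7 and 105 RPKM, against 41.1 to 69.9 RPKM (log2 difference 0.96, adjusted p = 0.893 from limma). Sufficient replicate 4, highest for Rag1 and Rag2, also had the most Il7r, Il2ra (3.59 RPKM, against 0.168 to 0.424 RPKM in the other 5 tumors) and Iglc2, a lambda light chain constant gene (248 RPKM, against 6.39 to 16.4 RPKM).

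**Figure D5:**
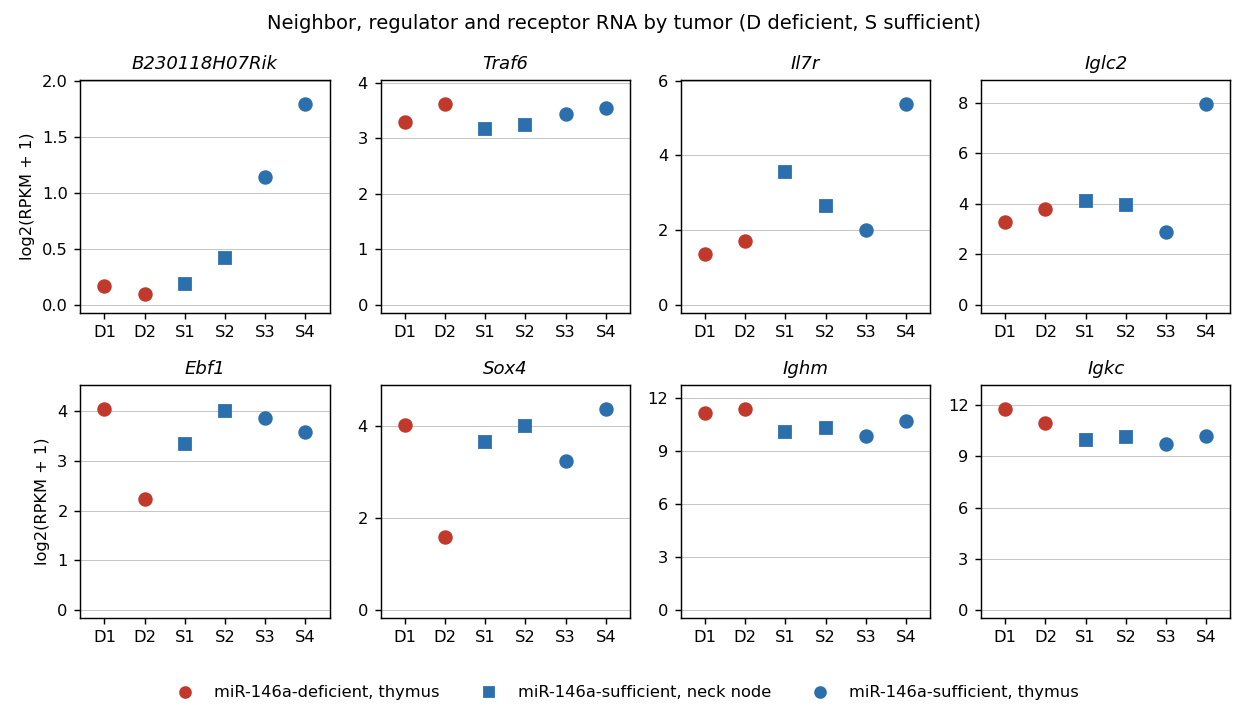
RNA of 2 neighbors of the Rag genes and of 6 regulator and receptor genes as log2(RPKM + 1) in the 6 tumors, with deficient tumors (D, red) left of sufficient tumors (S, blue), neck node tumors as squares and thymic tumors as circles. B230118H07Rik is highest in S3 and S4 as the Rag genes are, Traf6 stays between 8.03 and 11.3 RPKM, Il7r and Iglc2 peak in S4, and Ighm and Igkc are highest in the 2 deficient tumors.

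Thymocytes express Rag1, Rag2 and Dntt, so their markers were read in the same tumors. The 13 thymocyte and T cell markers summed to 17.6 and 21.0 RPKM in the deficient tumors, against 83.4, 27.5, 55.4 and 25.0 RPKM in sufficient replicates 1 to 4. Lck made up 5.06 and 11.0 RPKM of these sums in the deficient tumors, against 15.9, 7.37, 8.77 and 12.8 RPKM. The order of the lower sums therefore rests largely on that gene. Sufficient replicate 1 had the highest sum and 0.640 RPKM of Rag1, and sufficient replicate 4 had a sum of 25.0 RPKM and 55.1 RPKM of Rag1. Ptcra, the pre-T receptor chain, was 0.0758 and 0.0549 RPKM in the deficient tumors, against 0 to 0.138 RPKM in the sufficient tumors, and was listed at 0 in sufficient replicate 4. Cd4 was 1.09 and 1.06 RPKM in the deficient tumors, against 0.590 to 2.88 RPKM in the sufficient tumors. Of the 13 markers 10 were tested and 0 were called, and 3, Cd3g, Cd8b1 and Tcf7, were lower in the deficient tumors at an unadjusted limma p under 0.05 (0.737% of all genes). Cd3g, a T cell receptor complex chain, was 1.41 and 0.895 RPKM in the deficient tumors, against 2.04 to 8.65 RPKM in the sufficient tumors. The log2 differences were -1.35 for Cd3g, -1.48 for Cd8b1 and -1.44 for Tcf7, and the list's median was -0.72.

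Markers of other cells were read in the same tumors. The 7 neutrophil markers summed to 106 and 269 RPKM in the deficient tumors, against 1586 and 1615 RPKM in sufficient replicates 1 and 2 from neck nodes and 232 and 200 RPKM in the thymic replicates 3 and 4, the reverse of the order of Rag1 by site. In the site comparison S100a8, S100a9, Ngp, Camp and Ltf were called higher in the neck node tumors (adjusted p from 0.0110 to 0.0310 from limma). Mpo and Elane were not (adjusted p = 0.0579 and 0.0573 from limma), and 0.155% of all genes were called. The 7 macrophage markers summed to 73.7 and 103 RPKM in the deficient tumors, against 23.5 to 59.7 RPKM in the sufficient tumors. The 6 plasma cell markers summed to 50.7 and 35.0 RPKM, against 33.0 to 62.0 RPKM. The part of these cells in the Rag differences was not tested.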

How the data were processed

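Single-end reads of 6 tumors, with 2 technical replicates per tumor, were aligned to the mouse genome (GRCm38) by the authors, who used STAR 2.3.0 and then HTSeq 0.5.4p3 to count reads per gene, as the submitters' processing notes and the study's methods give. The submitters' notes also name DESeq 1.12.1. The values deposited are RPKM for each gene in each tumor, and how the authors made the RPKM from the counts, the gene lengths, the use of strand and the depths are not given in the sources used here. Values as deposited were tested as log2(RPKM + 1) with limma 3.58.1 with trend in R 4.3.3, in place of a count test. Genes with at least 0.5 RPKM in at least 2 tumors were kept, and p-values were adjusted by Benjamini-Hochberg over all tested genes with a threshold of 0.05. Exact permutation tests used SciPy 1.17.1. Groups, sites and ages came from the labels.

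The members, the lists and the tests were chosen with earlier results of these data known. Named genes are the members, list genes whose groups do not overlap or that hold a defining role, and the nearest genes by Pearson's r, of which 1 gene model known by a clone identifier is left out for Rag1. A few list genes are not reported here by name. Alternatives changed the filter, pseudocount, scaling, trend, site, block and tumors. Deviations from the group means were compared between same-numbered deficient and neck node tumors, with r of 0.0192 for number 1 and 0.213 for number 2. This cannot decide whether they are paired. The 2 deficient deviations mirror each other, and the neck node tumors deviate from a mean that includes the thymic sufficient tumors. The labels give no pairing by replicate number. Spi1, Ighd and Iglc1 were not matched by symbol and were not analysed here. Loci came from GENCODE M21, promoter windows from RefSeq (GRCm38).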

Additional observations from a re-analysis of the deposited data

Results flagged for a closer look

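In each of 14 groups of 4 sufficient tumors (1 per gene), the highest and the lowest tumor were compared with the rest, and 4 held a tumor that stood apart by Dixon's test at 95%. Chance gives about 1 in 20 for normal values from 1 population. Here the test was run on RPKM without logs, in tumors of 2 sites, so that rate need not hold. The share of all genes flagged by this rule was not computed, so the 4 are descriptions only. Dntt was 6.34 RPKM in sufficient replicate 3, against 0.287 to 0.606 RPKM in the other sufficient tumors. Vpreb2 was 1.73 RPKM in the same tumor, against 0 to 0.189 RPKM. Il2ra, a chain of the interleukin receptor carried by pre-B cells, was 3.59 RPKM in sufficient replicate 4, against 0.238 to 0.424 RPKM. Iglc2 was 248 RPKM in sufficient replicate 4, against 6.39 to 16.4 RPKM. Both tumors were thymic. They were the 2 highest for Rag1 and Rag2, and sufficient replicate 4 was the lowest for Vpreb1 and Igll1.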

How the results depend on the processing

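Over 14 alternatives, 82 of 84 differences of the member genes between genotypes kept their direction and stayed short of the threshold. The exceptions were Rag2, at 0.0787 with the replicate block, and Vpreb3, whose values ran from -0.79 to 0.20 with each tumor left out. Leaving out the filter or the trend cannot change a difference, and site as a covariate repeats the difference among thymic tumors. These alternatives are therefore no separate check of direction. The replicate block compares the deficient with the neck node tumors only, gives Rag1 -0.55, and in it 1 gene of all those tested was called and 0 members. The count of genes called over the whole table was 8, against 3 among the thymic tumors alone, 3 when site entered the fit, and 4 to 9 with each tumor left out. Of 38 differences by site, 31 stayed alike. Vpreb1 was at 0.25 with a pseudocount of 0.1 and ran from -1.84 to 1.38 with each tumor left out, Igll1 from -0.64 to 1.72 and Vpreb3 from -0.45 to 0.25. The 2 member calls, Rag1 and Rag2, came without sufficient replicate 2. Genes called by site over the whole table numbered 19, against 0 with no filter on low values (1388 at an unadjusted p under 0.05 from limma), and 11 to 67 with each tumor left out. The cause was not tested. Of the 21 correlations, 0 passed adjustment in any of 3 settings. Depth is unknown, so a low RPKM has no counting error here, and 2 tumors against 4 or 2 limit every comparison.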
